A study of Homo sapiens with 2 samples.

Results

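The classical estrogen receptor target genes described here are GREB1, PDZK1, MYB, CA12, NRIP1, RARA, SIAH2, KCNK5, CELSR2 and RET. They were chosen by gene symbol, and all 10 were found once each among the 46732 genes of the deposited gene table. The samples were secondary mammospheres of T47D, a widely used human breast cancer cell line of the luminal type that carries the estrogen receptor. Mammospheres are floating clusters grown on plates to which cells cannot attach, and these had been grown for 7 days, passaged and grown for 7 more. There was 1 library of CIC knockdown cells and 1 of control cells, called the knockdown-labelled library and the control library below. CIC, or capicua, represses genes by binding DNA and is itself switched off by ERK; how it was knocked down is not stated.

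The estrogen receptor is a transcription factor that estrogen activates. It binds DNA as a dimer, often at distal enhancers and beside the pioneer factor FOXA1, and recruits coactivators that raise transcription of nearby genes. In luminal breast cancer cells its targets include transcription factors and coregulators, signalling and degradation proteins, and enzymes, channels and scaffolds of the cell surface. Their messages are widely used as a readout of receptor activity.

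Across these genes, 2 stood well above control in the knockdown-labelled library, and the others lay near an equal level. PDZK1 was 1.68 times and KCNK5 1.67 times its control level. By their counting intervals, which cover counting error only, 7 of the 10 genes were higher and 0 lower, against 33.8% and 27.3% of the 13722 genes with at least 100 counts in a library. At 1.5-fold or more, 2 of 10 were higher and 0 lower, against 4.28% and 3.43% of those genes. At 2-fold or more, 0 of 10 were higher or lower, against 1.17% and 0.962%. The median log2 ratio was 0.10 for the 10 genes and 0.02 for all 13722. Without replicates the spread between cultures is unknown, and every statement compares these 2 libraries only.

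The sequences upstream of 3 of these genes are shown. PDZK1 and KCNK5 had the largest ratios, and RARA had the clearest difference in the use of start sites. Whether these sequences bear on the ratios was not tested. Each sequence runs from 250 bases before to 50 after an annotated transcription start, from RefSeq on GRCh38.p14, 5′ to 3′ on the gene's strand. Capitals mark GGTCA on either strand (TGACC when read on the other), which is 1 arm of the estrogen response element.
PDZK1 chr1:145707351-145707650, minus strand: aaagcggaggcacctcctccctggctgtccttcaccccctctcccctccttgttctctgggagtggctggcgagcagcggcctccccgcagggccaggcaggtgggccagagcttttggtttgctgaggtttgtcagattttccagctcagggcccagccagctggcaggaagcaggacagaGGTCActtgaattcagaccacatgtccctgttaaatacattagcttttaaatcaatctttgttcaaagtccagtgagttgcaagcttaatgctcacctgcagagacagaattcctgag
KCNK5 chr6:39229426-39229725, minus strand: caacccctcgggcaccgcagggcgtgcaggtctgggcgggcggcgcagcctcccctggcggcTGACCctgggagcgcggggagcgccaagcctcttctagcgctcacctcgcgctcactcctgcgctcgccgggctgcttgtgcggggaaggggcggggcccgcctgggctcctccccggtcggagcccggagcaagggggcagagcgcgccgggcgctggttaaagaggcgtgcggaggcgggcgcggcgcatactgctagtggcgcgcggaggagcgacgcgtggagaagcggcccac
RARA, upstream start, chr17:40308930-40309229, plus strand: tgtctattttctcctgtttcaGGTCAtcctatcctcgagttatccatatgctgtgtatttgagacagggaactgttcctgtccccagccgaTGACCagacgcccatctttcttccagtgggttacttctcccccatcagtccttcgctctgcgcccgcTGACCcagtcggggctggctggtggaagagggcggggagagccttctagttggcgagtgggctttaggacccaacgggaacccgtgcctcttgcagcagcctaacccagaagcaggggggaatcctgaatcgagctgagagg
RARA, next start, chr17:40317995-40318294, plus strand: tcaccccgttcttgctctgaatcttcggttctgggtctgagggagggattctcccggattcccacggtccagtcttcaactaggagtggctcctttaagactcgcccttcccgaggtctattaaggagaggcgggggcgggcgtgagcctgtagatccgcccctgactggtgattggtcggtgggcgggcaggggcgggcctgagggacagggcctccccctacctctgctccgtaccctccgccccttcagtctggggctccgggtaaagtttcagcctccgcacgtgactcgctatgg

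RefSeq windows of this kind were matched for 9 of the 10 genes, 15 windows in all. GREB1 had no window. The windows also left out some starts of the other genes, such as the PDZK1 start at 145708201. The whole element GGTCANNNTGACC was in 0 of the 15 and in 0.057% of 35116 human promoter windows. The arm GGTCA, which lies within the whole element, was in 6 of the 15, from PDZK1, KCNK5, CA12, RARA and NRIP1, and in 37.4% of all windows. The longer arm AGGTCA was in 3 of the 15, from PDZK1 and RARA, and in 13.8% of all. The 2 PDZK1 windows share 268 bases and hold the same single arm, so it is counted in both, and by gene the arm was in 5 of 9 and the longer arm in 2 of 9. The octamers TGAATGAA and TGAATGGA, to which CIC is known to bind, were in 0 of the 15 and in 1.65% and 1.03% of all windows. All motifs were searched on both strands. In the upstream RARA window the arm occurred at 3 places, whose first bases lie at -229, -159 and -92 relative to the start, and in the next RARA window at 0.

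The knockdown-labelled library held 68420805 estimated counts and the control library 47099221, a ratio of 1.45. CIC itself had 872 counts in the knockdown-labelled library and 607 in the control library, a ratio of 0.98 (95% counting interval 0.882 to 1.09), so CIC message was not lower under the knockdown label. Directions are therefore between the labels. The 7 luminal markers summed to 7980 TPM in the knockdown-labelled library and 7903 TPM in the control library, most of it from KRT8, KRT18 and KRT19. Of the transcription factors among them, the ratios in counts were 0.964 for ESR1, 0.96 for GATA3 and 1.13 for FOXA1. TPM is the authors' abundance per length, scaled to a fixed sum in each library. Markers of other cell types were near 0. The lists of 4 basal, 4 leukocyte, 3 endothelial and 4 fibroblast genes summed to 0.764, 0.13, 0.124 and 0.475 TPM in the knockdown-labelled library, and to 0.943, 0.0281, 0.074 and 0.269 TPM in the control library. KRT5, KRT14, PTPRC, CD3E, COL1A2 and PDGFRB were at 0 counts in both libraries.

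On the per-length scale, SIAH2 was the most abundant of the 10 genes, at 45.1 TPM in the knockdown-labelled library and 42.3 TPM in the control library. NRIP1 and GREB1 followed, and then RET and CA12. KCNK5 was the least abundant, at 2.49 TPM in the knockdown-labelled library and 1.44 TPM in the control library. The order was the same in both libraries except for PDZK1, which stood above CELSR2 and RARA in the knockdown-labelled library and below both in the control library. In control the genes ranged from the 47.6th percentile of all genes with a TPM above 0, for KCNK5, to the 93.4th, for SIAH2.

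**Figure D1:**
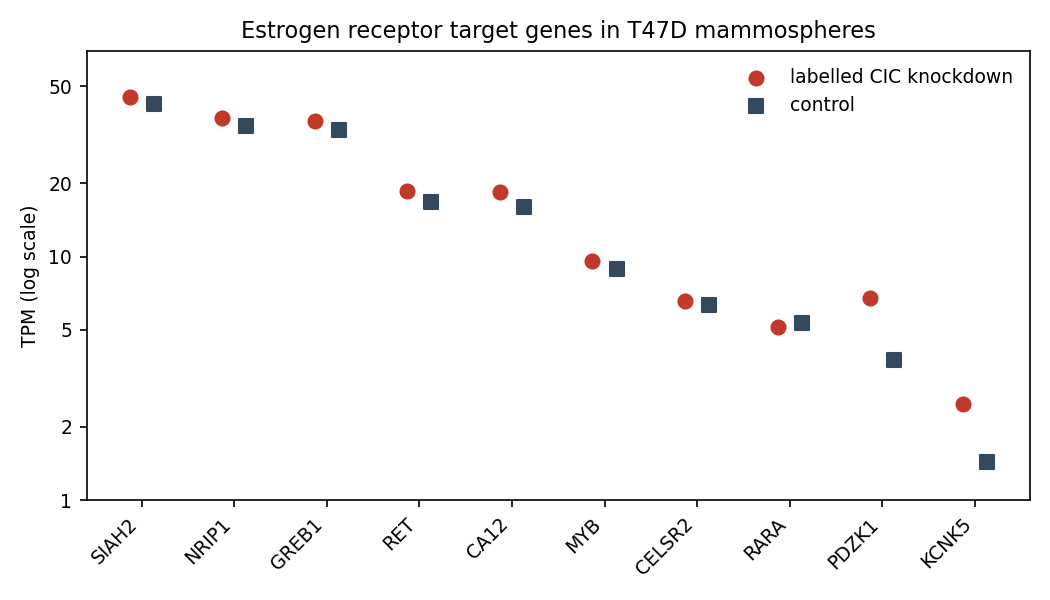
TPM (log axis) of the 10 genes in the knockdown-labelled library (red circles) and in the control library (dark squares), 1 library each, in order of the control level. The symbols nearly coincide for 8 genes, whereas the circle lies well above the square for PDZK1 (6.75 TPM knockdown-labelled, 3.76 TPM control) and KCNK5 (2.49 TPM knockdown-labelled, 1.44 TPM control).

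Among the genes that act on transcription, GREB1 and NRIP1 were slightly higher in the knockdown-labelled library, and MYB and RARA overlapped an equal level. GREB1, a chromatin-bound cofactor of the estrogen receptor, lies on chromosome 2 (11481675 to 11642788, GRCh38). It had 17077 counts and 35.9 TPM in the knockdown-labelled library, against 10640 counts and 32.9 TPM in the control library. The ratio of normalised counts was 1.09 (1.07 to 1.12). A difference this size is common here, since 25% of the 13722 genes had log2 ratios above 0.18, and GREB1 stood at 0.13.

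NRIP1 (RIP140), a ligand-dependent corepressor of the estrogen receptor and other nuclear receptors, lies on chromosome 21 (14961235 to 15065903). It had 18782 counts and 37.2 TPM in the knockdown-labelled library, against 12154 counts and 34.4 TPM in the control library. Its ratio was 1.05 (1.03 to 1.08), close to the median of all genes.

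MYB, a transcription factor whose message is held back by pausing in its first intron until estrogen relieves it, lies on chromosome 6 (135181308 to 135219173). It had 2136 counts and 9.58 TPM in the knockdown-labelled library, against 1397 counts and 8.85 TPM in the control library. The ratio was 1.04, and its interval of 0.974 to 1.12 spanned an equal level.

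RARA, the retinoic acid receptor alpha, lies on chromosome 17 (40309180 to 40357643). It had 1139 counts and 5.13 TPM in the knockdown-labelled library, against 834 counts and 5.34 TPM in the control library. At 0.932 (0.851 to 1.02), it was the only ratio of the 10 below 1, with an interval that included 1.

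The signalling and degradation genes were also near equal. RET, the receptor tyrosine kinase for ligands of the GDNF family, lies on chromosome 10 (43077027 to 43130351). It had 6427 counts and 18.7 TPM in the knockdown-labelled library, against 4040 counts and 16.7 TPM in the control library, a ratio of 1.08 (1.04 to 1.13). SIAH2, a RING ubiquitin ligase that marks prolyl hydroxylases and corepressors for degradation, lies on chromosome 3 (150741125 to 150763169). It had 6903 knockdown-labelled and 4523 control counts, and a ratio of 1.04 (1.002 to 1.08). If the counts were of both mates of a pair, the intervals are too narrow. From halved counts the SIAH2 interval was 0.987 to 1.1 and spanned 1, and SIAH2 was the only gene of the 10 whose call was lost in this way. With upper-quartile scaling of the full counts its interval was 0.988 to 1.06 and also spanned 1.

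The genes of the cell surface held both large ratios. PDZK1, a scaffold with PDZ domains that holds transporters and the receptor SCARB1 at the membrane, lies on chromosome 1 (145670852 to 145708201). It had 906 counts and 6.75 TPM in the knockdown-labelled library, against 367 counts and 3.76 TPM in the control library. The ratio was 1.68 (1.49 to 1.91), and 97.7% of the 13722 genes had lower ratios.

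KCNK5 (TASK-2), a potassium channel of the tandem-pore family, lies on chromosome 6 (39188971 to 39229475). It had 617 counts and 2.49 TPM in the knockdown-labelled library, against 252 counts and 1.44 TPM in the control library. The ratio was 1.67 (1.44 to 1.94), above that of 97.6% of the 13722 genes. From halved counts the intervals were 1.42 to 2.01 for PDZK1 and 1.35 to 2.07 for KCNK5. These were the 2 genes with the fewest counts of the 10. Among the 2771 genes with a mean of 5 to 15 CPM (counts scaled to library size), a range chosen after the values were seen and holding both, 4.73% were at least 1.5-fold higher.

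CA12, a membrane carbonic anhydrase that acidifies the cell exterior, lies on chromosome 15 (63321378 to 63382166). It had 7317 counts and 18.4 TPM in the knockdown-labelled library, against 4508 counts and 16.0 TPM in the control library, a ratio of 1.11 (1.07 to 1.15). CELSR2, an adhesion receptor of the cadherin superfamily related to the planar polarity gene flamingo, lies on chromosome 1 (109249539 to 109275751). It had 4808 counts and 6.58 TPM in the knockdown-labelled library, against 3214 counts and 6.30 TPM in the control library. Its ratio was 1.02 (0.976 to 1.07), and its interval spanned 1.

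**Figure D2:**
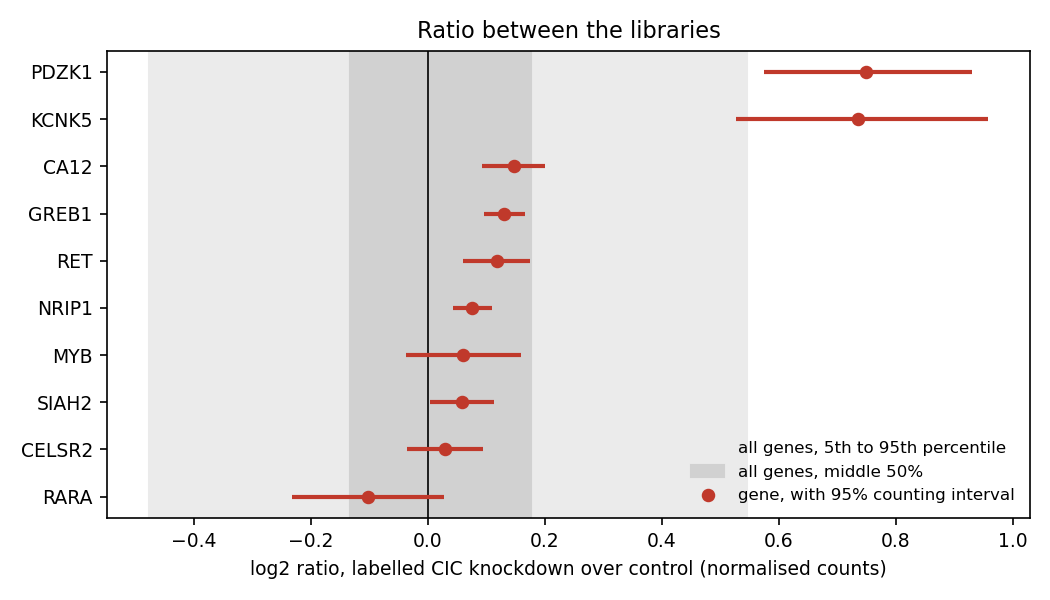
Log2 ratio of normalised counts, knockdown-labelled library over control, for each of the 10 genes (points) with its 95% counting interval (lines). The grey bands hold the middle 50% of 13722 genes (dark, -0.13 to 0.18) and their 5th to 95th percentile (light, -0.48 to 0.55); PDZK1 at 0.75 and KCNK5 at 0.74 lie beyond both, and the other 8 genes lie in the dark band.

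Several of these genes have more than 1 annotated start site, and the estimated counts were divided among transcripts by the authors' software. Starts within 500 bases of each other were grouped, on strands from GENCODE 29. The intervals of shares and ratios by start site cover counting error and leave out the error of that division.

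RARA had the clearest difference between its start sites. Transcripts from its upstream start, at 40309180 to 40309198, had 431 counts in the knockdown-labelled library and 97 in the control library. They made up 37.8% (exact binomial 95% interval 35.0 to 40.7) of the gene's counts in the knockdown-labelled library and 11.6% (9.53 to 14.0) in the control library. Transcripts from the next start, at 40318245, had 617 counts in the knockdown-labelled library and 672 in the control library, or 54.2% (51.2 to 57.1) of the knockdown-labelled counts and 80.6% (77.7 to 83.2) of the control counts. The ratios were 3.0 (2.43 to 3.82) for the upstream start and 0.627 (0.56 to 0.7) for the next start, so the near-equal total of RARA joined values that lay on opposite sides of 1. In GENCODE 29 the main messages of these starts have the same coding exons and differ at their 5′ ends in a first exon of 93 or 168 bases. The deposited lengths of these messages are 3275 and 3372 bases, so the division rests on a small part of the reads. The start of the receptor form RARα2, at 40342166, had 12 counts in the knockdown-labelled library and 13 in the control library. A non-coding gene that spans the next start, LOC105371934, had 30 counts in the knockdown-labelled library and 6 in the control library. RARA-AS1, which lies within the gene span, had 27 knockdown-labelled and 20 control counts. Whether the counting used strand is not stated, and reads of RARA and of these genes may not have been told apart.

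PDZK1 was higher from each start group with at least 100 counts in a library, though not from every transcript within these groups. The farthest upstream start, at 145708201, had 309 counts in the knockdown-labelled library and 95 in the control library, a ratio of 2.2 (1.76 to 2.82). The group at 145707381 to 145707400, whose promoter is printed above, had 547 knockdown-labelled and 253 control counts, a ratio of 1.47 (1.27 to 1.72). In this group only the transcript that begins at 145707381, XM_011509618, was higher, with 388 knockdown-labelled and 97 control counts. The messages that begin at 145707400 were not higher. NM_002614 had 108 knockdown-labelled and 76 control counts, a ratio of 0.97 (0.716 to 1.32). NM_001201325 had 51 and 50, and NM_001201326 had 0 and 30. The group at 145691674 to 145691681 had 50 knockdown-labelled and 19 control counts, below that minimum, and a ratio of 1.73 (1.04 to 3.22). The pseudogene PDZK1P1 had 0 counts in both libraries. The neighbour GPR89A overlaps 126 bases of the PDZK1 span and had 2029 counts in the knockdown-labelled library and 1299 in the control library, a ratio of 1.07 (0.993 to 1.14).

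KCNK5 counts came almost wholly from the annotated promoter printed above. Transcripts that begin there had 585 counts in the knockdown-labelled library and 250 in the control library, a ratio of 1.59 (1.37 to 1.86). A short model that begins within the gene, at 39194696, had 32 knockdown-labelled and 2 control counts.

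NRIP1 also differed by start. The farthest upstream start, at 15065903, had 3048 counts in the knockdown-labelled library and 2708 in the control library, a ratio of 0.768 (0.729 to 0.809). The main group, at 15064834 to 15065000, had 15627 knockdown-labelled and 9273 control counts, a ratio of 1.15 (1.12 to 1.18). It held 83.2% of NRIP1 counts in the knockdown-labelled library and 76.3% in the control library. Transcripts within this group lay on both sides of 1, such as XM_005261063 at 1.88 (1.78 to 1.99) and XM_011529749 at 0.503 (0.461 to 0.547). RET kept nearly the same division, with 84.7% of counts from its upstream start in the knockdown-labelled library and 86.0% in the control library.

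GREB1 had 8 start groups across the gene, and none held more than 28.2% of its counts in either library. The ratios of the groups ran from 0.514 to 1.53. The highest was that of the start at 11482876, with 2724 counts in the knockdown-labelled library and 1210 in the control library (1.43 to 1.64). A 7SL pseudogene inside the GREB1 span, RN7SL674P, had 403 knockdown-labelled and 299 control counts, and such near-identical copies cannot be counted with certainty.

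**Figure D3:**
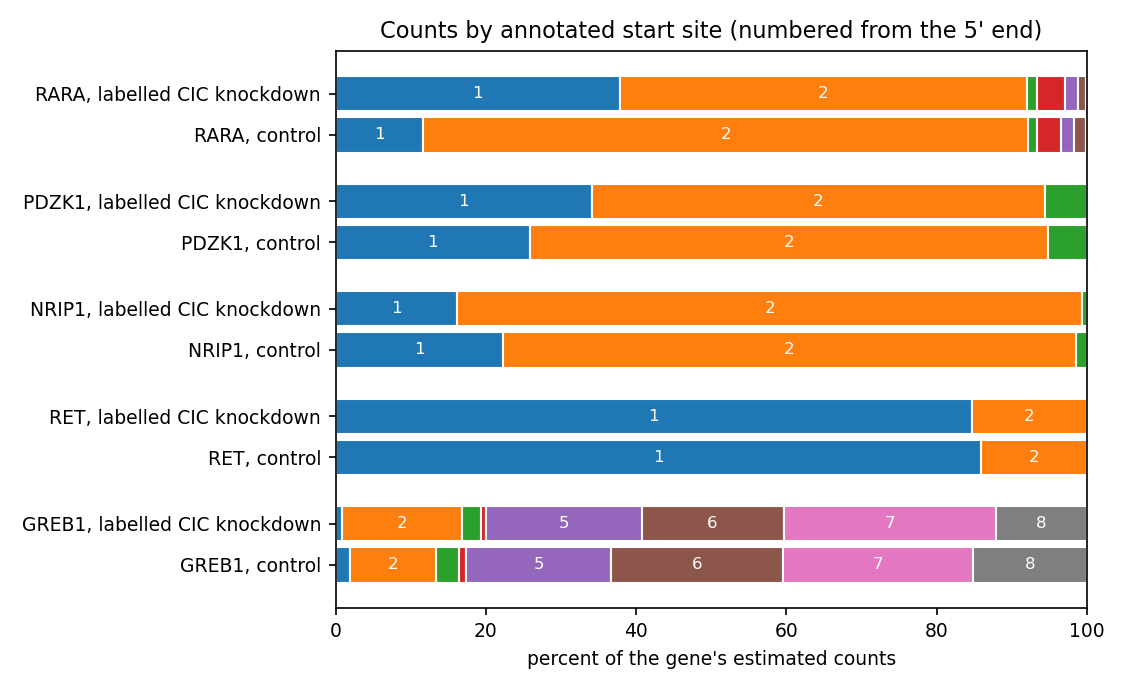
Share of each gene's estimated counts (percent, horizontal axis) by group of annotated starts, numbered from the 5′ end, for 5 genes with several starts; the upper bar of each pair is the knockdown-labelled library and the lower bar control. Start 1 of RARA takes 37.8% in the knockdown-labelled library and 11.6% in control, while the RET bars are nearly alike.

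MYB has a single start region, but its 17 annotated variants divided the counts very differently in the 2 libraries. The variant NM_005375 had 1528 counts in the knockdown-labelled library, 71.5% of the gene, and 152 in the control library, 10.9%. In total 70.2% of MYB counts were assigned to other variants between the libraries, while the gene total differed by a ratio of 1.04. The same measure was 27.1% for RARA, 26.5% for PDZK1, 16.9% for NRIP1, 10.9% for GREB1, 4.62% for CA12, 4.39% for KCNK5 and 1.28% for RET. SIAH2 and CELSR2 have a single annotated transcript each. The measure was not computed for other genes, so whether any of these values is unusual is not known. Most MYB variants begin and end at nearly the same places, and the error of dividing counts among them was not measured.

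CA12 counts came almost wholly from 1 of 4 transcripts in both libraries. That transcript had 6963 counts in the knockdown-labelled library and 4498 in the control library. The other three, which begin at nearly the same place, had 102, 121 and 131 counts in the knockdown-labelled library and 6, 0 and 4 in the control library.

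The tables with assembled transcripts added 7 splice variants at these genes, 3 each at GREB1 and RET and 1 at CELSR2, and 0 assembled transcripts outside annotated genes within their spans. They changed the gene totals little in ratio. At CELSR2 the assembled variant took 90.0% of the gene's counts in the knockdown-labelled library and 99.9% in the control library. The annotated CELSR2 transcript then had 483 knockdown-labelled and 3 control counts. RET had 7636 counts in the knockdown-labelled library and 4945 in the control library in that table, a ratio of 1.05 (1.02 to 1.09). The division of RET by its 3′ end changed more. RET is made in a long form, RET51, which ends at 43130351, and a short form, RET9, which ends at 43127614. Among annotated transcripts the nearer end held 15.4% of counts in the knockdown-labelled library and 14.1% in the control library, and the annotated full-length RET9 message had 3 counts in each. With the assembled variants the nearer end held 41.0% in the knockdown-labelled library and 50.6% in the control library. These are shares of an end and not of RET9. The annotated full-length RET9 message, of 4311 bases, had 2 counts in the knockdown-labelled library and 1 in the control library there. Of the assembled RET variants, the one of 11702 bases had 2068 knockdown-labelled and 786 control counts, a ratio of 1.79 (1.65 to 1.95), and the one of 7773 bases had 1021 knockdown-labelled and 1679 control counts, a ratio of 0.415 (0.383 to 0.449). The variant that runs to the far end had 266 counts in the knockdown-labelled library and 32 in the control library. All 3 have fewer counts than the annotated RET51 message, which had 4238 knockdown-labelled and 2410 control counts in the same table.

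The receptor and its coregulators differed little between the libraries. ESR1, the estrogen receptor alpha, had 26158 counts and 65.3 TPM in the knockdown-labelled library, against 18506 counts and 65.7 TPM in the control library, a ratio of 0.964 (0.946 to 0.982). ESR2 had 311 knockdown-labelled and 190 control counts, and its ratio of 1.12 (0.929 to 1.34) spanned 1. Of 25 listed genes 24 had at least 100 counts, of which 10 (41.7%) were higher and 5 (20.8%) lower by interval, against 33.8% and 27.3% of all genes tested. Their median log2 ratio was 0.07. PGR, the progesterone receptor and itself an estrogen target, was the only one past 1.5-fold, with 3466 counts in the knockdown-labelled library and 1141 in the control library and a ratio of 2.07 (1.94 to 2.22). The methyltransferase gene KMT2D stood at 1.36 (1.25 to 1.47), the membrane estrogen receptor GPER1 at 1.32 (1.23 to 1.41) and BRIP1, a DNA helicase that binds BRCA1, at 1.31 (1.29 to 1.33). TFAP2A, at 1.24 (0.901 to 1.75), spanned 1.

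Other estrogen-induced genes went both ways. Of 49 with at least 100 counts, 22 (44.9%) were higher and 14 (28.6%) lower by interval, against 33.8% and 27.3% of all genes tested. At 1.5-fold or more, 4 were higher and 0 lower, against 4.28% and 3.43%. Their median log2 ratio was 0.03. Beside PGR, which stands in both lists, the neuropeptide Y receptor NPY1R had 20262 counts in the knockdown-labelled library and 7238 in the control library, a ratio of 1.91 (1.86 to 1.96). The fatty acid elongase ELOVL2 stood at 1.65 (1.57 to 1.73), the growth factor receptor IGF1R at 1.57 (1.51 to 1.63) and TPD52L1 at 1.46 (1.4 to 1.52). The widely used target TFF1, which falls outside the naming rule and was chosen after its value was seen, was among the lower genes at a log2 ratio of -0.19.

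Relatives and partners of the 10 genes gave a context for their levels. Of 51 listed genes 29 had at least 100 counts, of which 15 (51.7%) were higher and 8 (27.6%) lower by interval, against 33.8% and 27.3% of all genes tested. Their median log2 ratio was 0.15. SLC9A3R2 (NHERF2), a PDZ scaffold of the same family as PDZK1, had 16.4 TPM in the knockdown-labelled library and 8.07 TPM in the control library, a ratio of 1.89 (1.75 to 2.05) in counts. MYBL2, a MYB relative of dividing cells, had 29.4 TPM in the knockdown-labelled library and 16.3 TPM in the control library, and a ratio of 1.76 (1.67 to 1.85), so it was above MYB itself in both libraries on the per-length scale. The cytosolic carbonic anhydrase CA2 had 124 TPM in the knockdown-labelled library and 78.0 TPM in the control library, also above CA12, and a ratio of 1.55 (1.5 to 1.6). The channel gene KCNK6 had 10.2 TPM in the knockdown-labelled library and 7.07 TPM in the control library, above KCNK5, and a ratio of 1.51 (1.42 to 1.6). Outside the naming rule, the listed channel genes KCNK1, at 0.898 (0.843 to 0.957), and KCNK15, at 0.779 (0.715 to 0.848), were lower, and KCNK2 spanned 1.

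RET needs a GFRA coreceptor to bind its ligands. GFRA1, also an estrogen target and a member of both lists, had 84.3 TPM in the knockdown-labelled library and 86.4 TPM in the control library, and its ratio was 0.952 (0.939 to 0.965). Of its ligands GDNF, NRTN, ARTN and PSPN, artemin (ARTN) was the only one with at least 100 counts in a library. It had 130 knockdown-labelled and 62 control counts, a ratio of 1.42 (1.05 to 1.97).

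**Figure D4:**
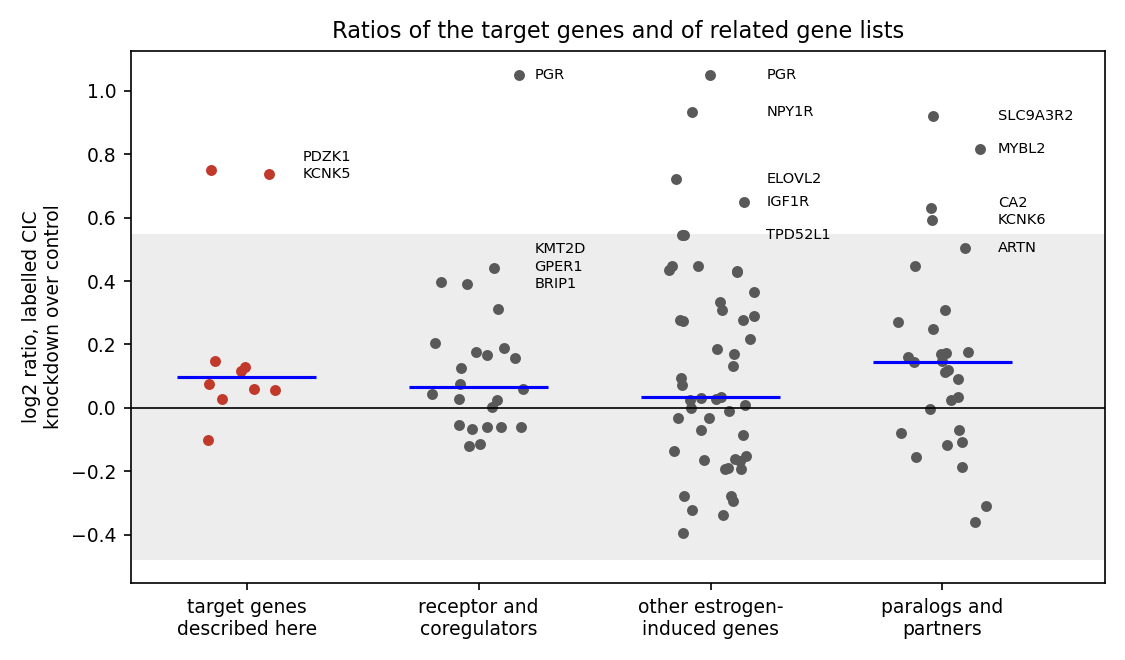
Log2 ratio, knockdown-labelled library over control, of genes with at least 100 counts in a library, for the 10 target genes (red) and for 3 related lists (grey), with each list's median (blue line). The shaded band is the 5th to 95th percentile of all genes. PDZK1 and KCNK5 stand above it, as do PGR, NPY1R, ELOVL2, IGF1R, SLC9A3R2, MYBL2, CA2 and KCNK6 of the related lists. The medians lie between 0.03 and 0.15.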

How the data were processed

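RNA from 2 samples, 1 per group, was sequenced from a strand-specific total RNA kit on a NovaSeq instrument, per the labels' protocols. The design text speaks of duplicates; whether a column pools them is not stated. Trimmomatic, HISAT2 and StringTie and GRCh38 are named in the submitters' processing notes, without versions. The deposited tables hold an estimated count, an FPKM and a TPM per gene and transcript, per the file headers; the authors divided coverage among transcripts, and the counts are already whole numbers. The authors' TPM values sum to 999872 in the knockdown-labelled library and 999861 in the control library. Columns marked KD and C were matched to samples by title, and 0 value columns were left unused.

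Counts of all 46732 genes gave TMM factors with edgeR 4.0.16 (R 4.3.3): 1.005 for the knockdown-labelled library and 0.995 for control. Ratios used a prior count of 2, with exact Clopper-Pearson 95% intervals conditional on the summed count. They cover counting error only; PCR copies of a molecule are not independent counts. A gene was tested with at least 100 counts in a library, and called by an interval on 1 side of 1. No p-value was possible. The code was tested on simulated data. Alternatives were other scalings (DESeq2 1.42.0 size factors among them), prior counts, minimums, units and tables. The genes, the 3 related lists and all rules were chosen with earlier results of these data known. Named from each list were the 5 largest absolute log2 ratios, plus ESR1, ESR2, PGR and GFRA1, and genes that overlap or share a symbol with the 10.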

Additional observations from a re-analysis of the deposited data

How the results depend on the processing

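No paired analysis was possible because each group has 1 library, and for the same reason no library could be left out. The 5 alternatives of prior count, minimum count and halved counts leave a gene's ratio almost or wholly alone by construction, and show nothing about its stability. Under the other 6 at gene level (scalings, units and the table with assembled transcripts), 58 of 60 values of the 10 genes stayed within the counting interval. These values are not independent, and the count shows little about stability. A change of scaling moves every gene by nearly the same amount, and the assembled transcripts change only GREB1, CELSR2 and RET. Gene-level log2 ratios ranged over 0.73 to 0.83 for PDZK1, 0.71 to 0.75 for KCNK5 and -0.12 to -0.06 for RARA. With upper-quartile factors 6 of the 10 genes were higher by interval and 0 lower, against 30.1% and 30.7% of all genes tested. From halved counts 6 were higher and 0 lower, against 26.3% and 21.4%. With the other scalings and the table with assembled transcripts 7 were higher and 0 lower, against 33.8% to 36.2% and 25.4% to 28.4%. TPM and FPKM values carry no interval and gave no such count. Taking only the transcript with the most counts changed the picture: 7 genes were then higher and 2 lower by interval, against 40.4% and 31.2% of all genes treated likewise. Of the 10 genes, 4 passed 1.5-fold, but the share of all genes that did so was not computed for this alternative. NRIP1 turned to -0.085, RARA stood at -0.67, PDZK1 at 1.43 and MYB at 2.76, since this alternative uses only a part of the gene's counts. Without a minimum count, 12.4% of all genes were higher by interval and 11.1% lower. The median of all genes shifted by less than 0.1 under each alternative. Depth limits the smallest differences: the SIAH2 call at a ratio of 1.04 was lost from halved counts and with upper-quartile factors.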
